A study of Mus musculus with 4 samples.

Results

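The tumour necrosis factor (TNF) superfamily of ligands and receptors was measured by 75 spots on each array, belonging to 48 probes and 37 genes, out of 43020 spots that were not controls. A gene was a member if its array name began with Tnfsf or Tnfrsf, or was Tnf, Lta, Ltb, Fas, Fasl, Cd40, Cd40lg or Cd27. These are 15 ligands and 22 receptors. Of the 37 genes, 33 had a signal well above background somewhere, on 1 or more arrays (12 ligands and 21 receptors), and 28 had it on all 4 arrays. The other 4, Cd40lg, Tnfrsf8, Tnfsf4 and Tnfsf8, were not well above background on any array. Their relative signals lay between 0.00232 for Cd40lg on the WT DSS array and 0.0121 for Tnfsf8 on the KO DSS array, and no ratio is given for them.

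The study set colons of mice given dextran sulfate sodium (DSS) in the drinking water, which damages the colon lining and brings on colitis, against colons of untreated (naive) mice, in 2 genotypes. The KO DSS group lacked Pla2g10 (-/-), which encodes a secreted phospholipase A2 called group X, and received 1% (w/v) DSS up to day 7. The WT DSS group was wildtype (+/+) with the same DSS. The KO naive group lacked Pla2g10 and the WT naive group was wildtype, both without DSS. All mice were C57BL/6. Their labels hold 9 weeks under sex and male under age, taken here as swapped, and the mice were housed from an age of 8 weeks. Each group is 1 array, whose RNA pools 3 mouse colons. No pair of groups therefore has a replicate, and a ratio between them has no test. In such bulk RNA, fewer cells of a type and less RNA per cell cannot be told apart.

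Most ligands of this family are trimers held in the cell membrane, from which several can be cut free, and their receptors pass the signal on inside the cell. Receptors with a death domain (Tnfrsf1a, Fas, Tnfrsf10b, Tnfrsf25, Tnfrsf21) can start apoptosis or necroptosis. Others recruit TRAF adaptors and switch on NF-kappa-B, and many of these serve as costimulatory receptors of lymphocytes. In the gut the family is known for inflammation driven by TNF, for the building of lymphoid tissue through lymphotoxin, and for B cell survival through Tnfsf13b.

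Values are relative signals, the processed signal of a probe over its array's 75th percentile, where 1 stands for that percentile. A level of 1 probe cannot be set against that of another probe. The error given after ± comes from the scanner's error model for a single spot, or from the SD of log2 values over 10 repeat spots, and covers a single array only, not the spread between mice. For most members it came to about 0.20 on the log2 scale of a ratio. Between 67.7% and 70.4% of spots were well above background on each array, and no spot was saturated. Pla2g10 itself had relative signals of 0.997 on the KO DSS array, 19.1 on WT DSS, 1.70 on KO naive and 15.9 on WT naive, which sets both KO arrays apart from both WT arrays in the labelled direction. Which exons were deleted is not stated in the labels, so this probe cannot be taken as a measure of intact transcript.

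**Figure D1:**
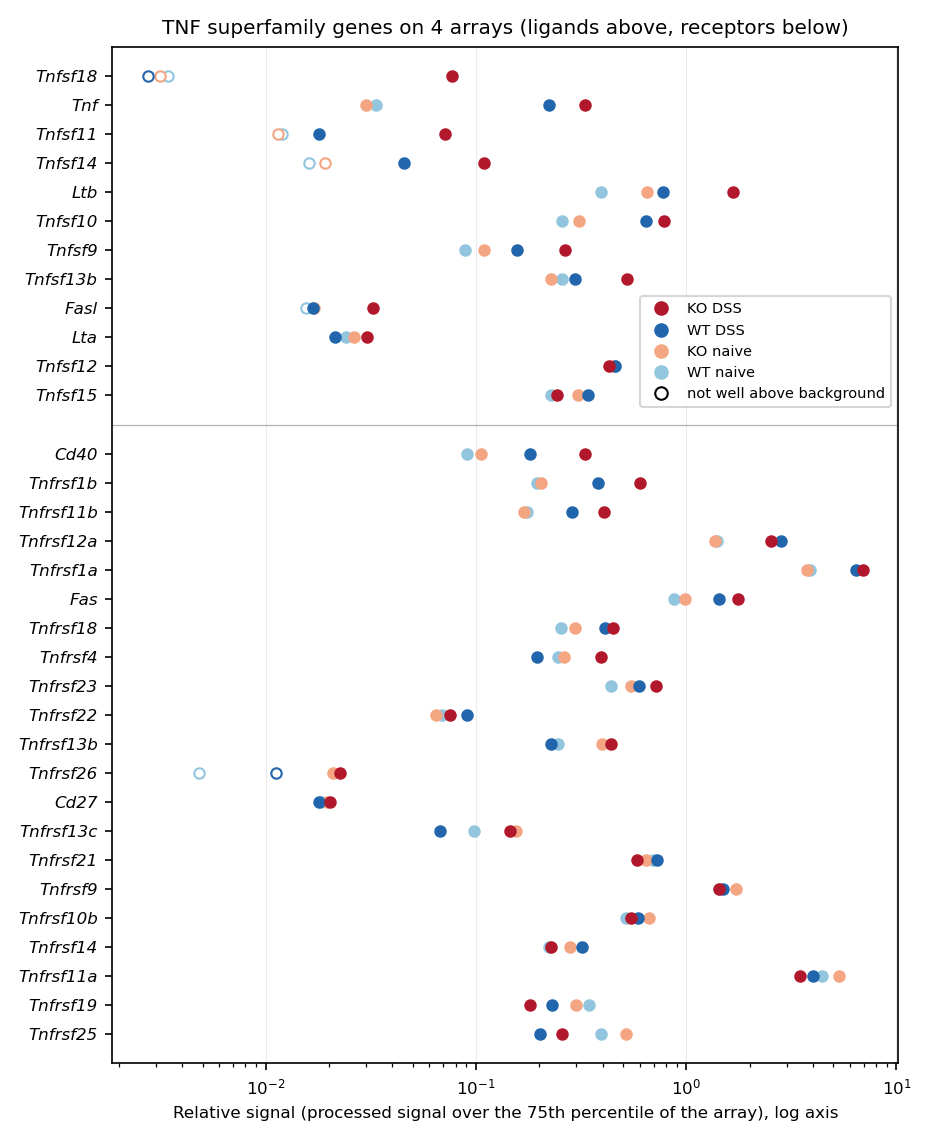
Relative signals of the 33 measured genes on the 4 arrays on a log axis, ligands above and receptors below; filled points are well above background on that array and open points are not. Tnf lay at 0.332 on KO DSS and 0.223 on WT DSS, against 0.0298 on KO naive and 0.0333 on WT naive, while Tnfsf12 and Cd27 had nearly the same signal on all 4 arrays.

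Both ligands and receptors were among the members with higher signals with DSS. At least 2-fold higher signals were seen for 11 of 33 members in KO colons, where 5.94% of all 21168 genes compared passed that threshold, and for 5 of 31 members in WT colons, where 3.49% of 21577 genes did. In KO colons 8 of the 11 were ligands (Tnf, Ltb, Tnfsf9, Tnfsf10, Tnfsf11, Tnfsf13b, Tnfsf14 and Tnfsf18) and 3 were receptors (Cd40, Tnfrsf1b and Tnfrsf11b). In WT colons they were Tnf, Tnfsf10, Tnfsf14, Cd40 and Tnfrsf12a. A single member, Tnfrsf25, was at least 2-fold lower in KO colons (5.22% of all genes), and 0 members were in WT colons (5.36% of all genes). Members that were dim without DSS entered only through the arrays where they were high. Over the 28 members that were well above background on all 4 arrays, 8 were at least 2-fold higher in KO colons (4.71% of all 19328 genes under that filter), of which 5 were ligands and 3 receptors, and 4 were in WT colons (2.54% of those genes), with 2 ligands and 2 receptors. The median log2 ratio of the members was 0.59 in KO colons and 0.39 in WT colons, against -0.13 in KO colons and -0.01 in WT colons for all genes. The log2 ratio was above 0 for 23 of 33 members in KO colons (38.9% of all genes) and for 22 of 31 in WT colons (47.2% of all genes), with 10 ligands among the 23 and 9 among the 22. Over the 28 members on all 4 arrays the median was 0.31 in KO colons and 0.41 in WT colons. Macrophage and dendritic cell markers had median DSS log2 ratios of 1.68 in KO colons and 0.51 in WT colons, and neutrophil markers of 1.66 in KO colons and 1.13 in WT colons. Over the 6 neutrophil markers on all 4 arrays these medians were 0.54 in KO colons and 0.95 in WT colons. The part of these cells in the results was not tested.

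Tnf, the founding cytokine of the family, had the largest measured DSS ratio of all members in both genotypes. Its probe (mm9 chr17:35336795-35336854) was spotted 10 times on each array. The repeat spots ran from 0.305 to 0.347 on KO DSS, from 0.203 to 0.237 on WT DSS, from 0.0230 to 0.0445 on KO naive and from 0.0282 to 0.0413 on WT naive. Both DSS arrays thus lay above both naive arrays with no overlap, and the KO DSS spots above all WT DSS spots, whereas the spots of the naive arrays overlapped. The DSS ratio was 11.1-fold in KO colons (log2 3.48 ± 0.26) and 6.69-fold in WT colons (log2 2.74 ± 0.20). The lowest well-measured signals were 0.0154 on KO naive and 0.0165 on WT naive, so both naive Tnf signals were dim. The size of the ratio depended on the background correction. Its mean over both genotypes was a log2 of 3.11, and 2.38 with another correction (normexp).

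Ltb and Lta, the lymphotoxin subunits that together form a membrane trimer needed for lymph nodes and gut lymphoid tissue, lie beside Tnf. On mm9 their probes are at chr17:35333097-35333156 for Ltb, 3.64 kb from that of Tnf, and at chr17:35340275-35340334 for Lta, 3.42 kb from it on the other side. Ltb gave 1.67 on KO DSS, 0.779 on WT DSS, 0.649 on KO naive and 0.392 on WT naive. Each DSS array was above the naive array of its genotype, by 2.57-fold in KO colons (log2 1.36 ± 0.20) and 1.99-fold in WT colons (log2 0.99 ± 0.20); the WT value was just short of 2-fold. Lta gave 0.0303, 0.0213, 0.0262 and 0.0240 on the same 4 arrays, close to background. Its repeat spots overlapped between all 4 arrays, and its DSS log2 ratios were 0.21 ± 0.45 in KO colons and -0.17 ± 0.63 in WT colons. Of the 10 Lta spots, 8 were well above background on KO naive and 5 on WT naive. The DSS ratio of Tnf was thus larger than that of Ltb. That of Lta lay within its error of 0, too close to background to be set against those of its neighbours.

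**Figure D2:**
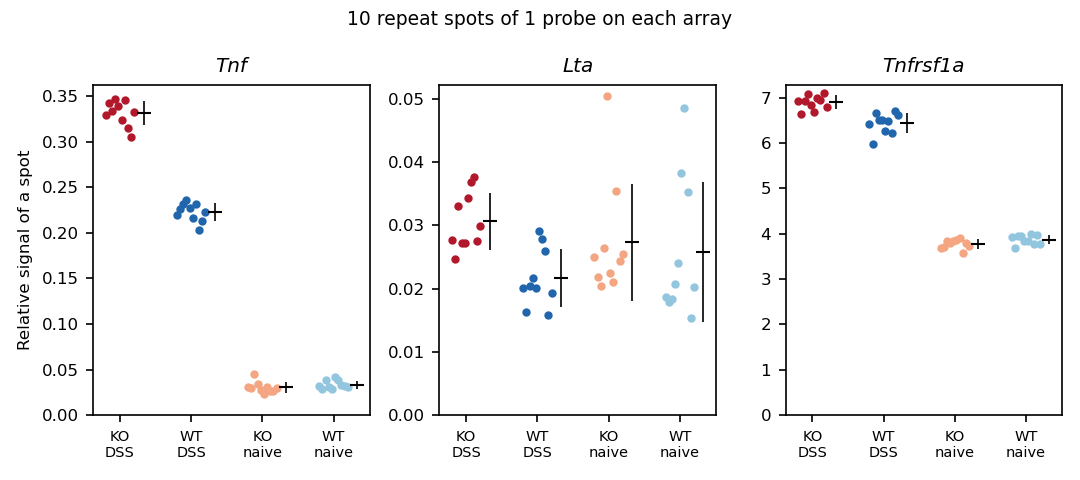
Relative signals (linear axes from 0) of the 10 repeat spots of 1 probe for Tnf, Lta and Tnfrsf1a on each array, with the mean and SD over the spots beside them. The spots of an array share 1 RNA pool, so the bars show spot-to-spot spread only; Tnf and Tnfrsf1a separate DSS from naive arrays and the Lta spots overlap on all 4 arrays.

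The sequences before the start sites of these neighbours are shown because the 3 genes are adjacent. Promoters came from RefSeq (GRCm38.p6), which held an entry for 28 of the 37 members, and are given as the 250 bases before the start, 5′ to 3′ on the gene's strand. Both strands were searched for 4 motifs: the TATA box with the letters TATAAA, the AP-1 site with the letters TGANTCA, the interferon-stimulated response element, which is GAAA repeated after any pair of bases, and the consensus site of NF-kappa-B. Capitals mark the matches. The windows are chr17:35202008-35202257 on the minus strand for Tnf, chr17:35205352-35205601 on the minus strand for Lta and chr17:35194257-35194506 on the plus strand for Ltb.
Tnf: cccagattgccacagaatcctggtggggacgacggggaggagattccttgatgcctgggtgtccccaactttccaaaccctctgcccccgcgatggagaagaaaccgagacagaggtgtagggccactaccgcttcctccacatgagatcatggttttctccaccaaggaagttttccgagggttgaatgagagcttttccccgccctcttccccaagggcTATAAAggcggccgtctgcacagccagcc
Lta: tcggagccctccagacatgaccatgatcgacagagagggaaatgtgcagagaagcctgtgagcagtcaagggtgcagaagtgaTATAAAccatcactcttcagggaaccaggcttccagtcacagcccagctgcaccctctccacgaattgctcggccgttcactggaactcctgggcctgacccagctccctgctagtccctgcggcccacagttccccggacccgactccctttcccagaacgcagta
Ltb: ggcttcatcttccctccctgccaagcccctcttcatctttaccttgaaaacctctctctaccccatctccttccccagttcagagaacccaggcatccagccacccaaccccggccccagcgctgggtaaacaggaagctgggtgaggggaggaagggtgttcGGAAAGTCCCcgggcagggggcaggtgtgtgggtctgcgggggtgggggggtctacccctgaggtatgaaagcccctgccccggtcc
Tnf held a TATA box starting 29 bases before its start, Lta had one 167 bases before its start, and Ltb held an NF-kappa-B match 87 bases before its start. Over 32851 promoters in the same table, 12.4% held a TATA box, 6.75% AP-1, 2.98% the interferon-stimulated response element and 7.25% NF-kappa-B. Of the 32 promoters of members (some genes have 2), 5, 5, 3 and 4 held these motifs in the same order. A match describes the letters only.

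Tnfsf10 (TRAIL), a ligand that can trigger apoptosis, had nearly the same DSS ratio in both genotypes. It gave 0.782 on KO DSS, 0.643 on WT DSS, 0.308 on KO naive and 0.257 on WT naive. The ratios were 2.53-fold in KO colons (log2 1.34 ± 0.20) and 2.51-fold in WT colons (log2 1.33 ± 0.21). Fasl, the ligand of Fas, was close to background: 0.0325 on KO DSS and 0.0168 on WT DSS, and neither naive array was well above background. Its DSS ratio in KO colons was 1.93-fold over the dim naive value itself (log2 0.94 ± 0.43), which is no lower limit. In WT colons the rule for dim arrays gave at least 1.02-fold, which is no strict limit. The log2 ratio to the dim WT naive value itself was 0.12 ± 0.52, within its error of 0.

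Costimulatory ligands differed in their DSS ratios. Tnfsf14 (LIGHT), which binds Tnfrsf14 and the lymphotoxin receptor, gave 0.109 on KO DSS and 0.0452 on WT DSS, while neither naive array was well above background. Its DSS ratio in KO colons was 5.70-fold over the dim naive value itself (log2 2.51 ± 0.39), which is no lower limit. In WT colons it was at least 2.74-fold. Tnfsf9, the ligand of the T cell costimulatory receptor Tnfrsf9, lies on the same chromosome with its probe 82.1 kb from that of Tnfsf14. It gave 0.265 on KO DSS, 0.157 on WT DSS, 0.109 on KO naive and 0.0884 on WT naive. Its DSS ratios were 2.42-fold in KO colons (log2 1.28 ± 0.21) and 1.78-fold in WT colons (log2 0.83 ± 0.22). The difference between these ratios was not tested.

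The Tnfsf14 promoter (chr17:57194182-57194431, minus strand) is shown with an AP-1 match, in capitals, that starts 160 bases before the start.
Tnfsf14: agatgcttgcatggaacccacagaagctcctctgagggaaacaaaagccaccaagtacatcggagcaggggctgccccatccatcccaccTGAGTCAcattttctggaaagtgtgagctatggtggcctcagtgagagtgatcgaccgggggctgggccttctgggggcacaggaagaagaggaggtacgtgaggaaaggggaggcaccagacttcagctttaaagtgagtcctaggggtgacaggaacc

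Tnfsf15 (TL1A), the ligand of Tnfrsf25, had DSS ratios on opposite sides of 0 in the 2 genotypes. It gave 0.243 on KO DSS, 0.341 on WT DSS, 0.305 on KO naive and 0.228 on WT naive. The log2 DSS ratio was -0.33 ± 0.21 in KO colons and 0.58 ± 0.21 in WT colons. The KO DSS and WT naive arrays were the low ones.

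Tnfsf18, the ligand of Tnfrsf18, was well above background on the KO DSS array alone, at 0.0772. On that array the single spot had a mean pixel value of 314, a median of 264 and a pixel SD of 135, against means between 52.5 and 56.0 on the other 3 arrays. The gap between mean and median shows uneven pixels within that spot, although it carried no flag for non-uniformity. The DSS ratio was at least 5.01-fold in KO colons, and none is given in WT colons. The first 30 bases of its probe (mm9 chr1:163435352-163435411, plus strand) are shown because the value rests on this 1 spot.
Tnfsf18: gggcacaaagactcttctgtttgcatatct

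Ligands of B cells, bone and repair completed the group. Tnfsf13b (BAFF), a survival factor of B cells, gave 0.524 on KO DSS, 0.294 on WT DSS, 0.228 on KO naive and 0.256 on WT naive. The KO DSS array stood above the other 3, and the DSS ratio was 2.30-fold in KO colons (log2 1.20 ± 0.21) and 1.15-fold in WT colons (log2 0.20 ± 0.21). Tnfsf11 (RANKL), which drives osteoclasts and also the specialised epithelium over gut lymphoid follicles, gave 0.0713 on KO DSS and 0.0179 on WT DSS and was not well above background on either naive array. Its DSS ratio was at least 4.63-fold in KO colons and, by the rule for dim arrays, at least 1.09-fold in WT colons. The WT value is no strict limit, since the log2 ratio to the dim WT naive value itself was 0.58 ± 0.64. Tnfsf12 (TWEAK), a ligand linked to tissue repair, lay between 0.427 and 0.460 on all 4 arrays. A dimmer probe of Tnfsf12 gave 0.129 on KO DSS and 0.0773 to 0.0978 on the other 3 arrays, with log2 DSS ratios of 0.74 in KO colons and -0.01 in WT colons.

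**Figure D3:**
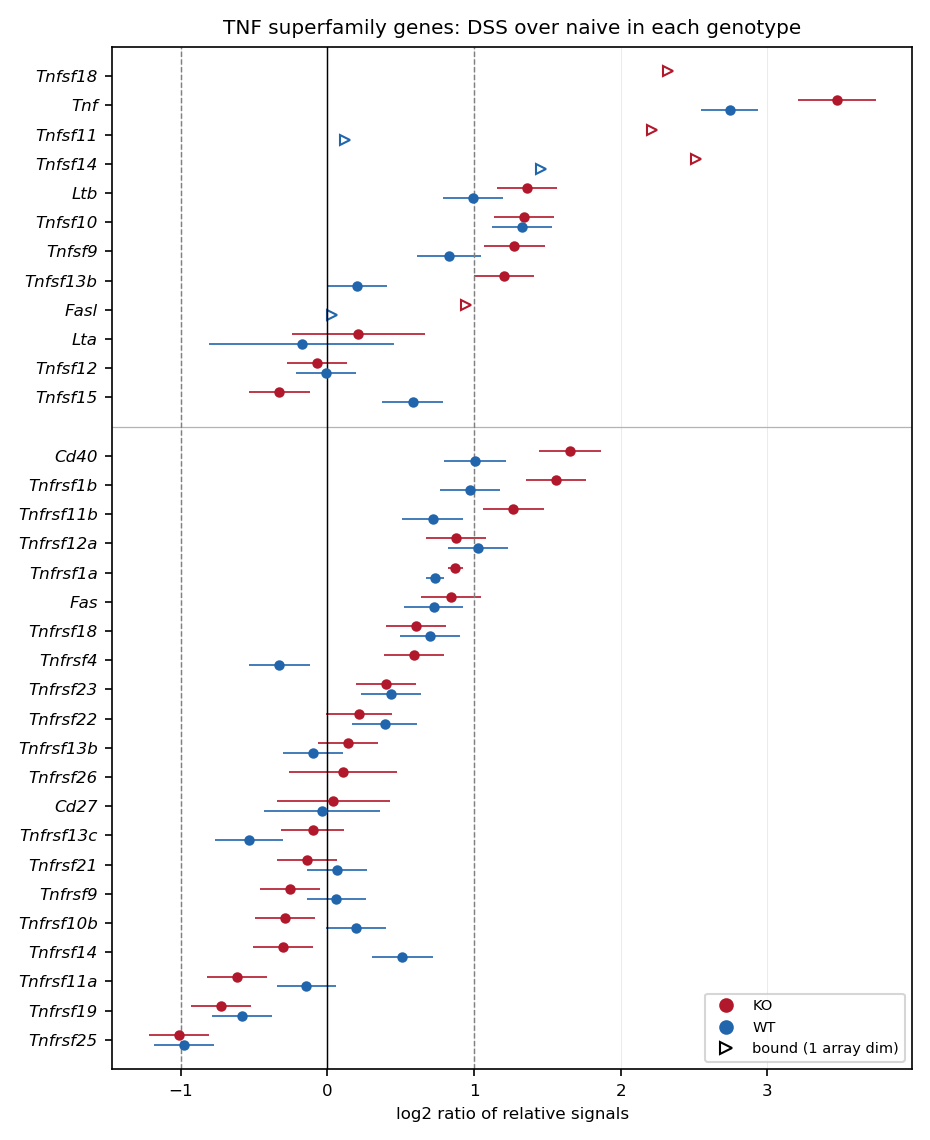
Log2 ratios of DSS over naive for each gene in KO and WT colons; points are measured ratios with their error within the arrays as bars, triangles are bounds where the naive array was not well above background, and dashed lines mark 2-fold. Tnf has the largest measured ratio in both genotypes (3.48 in KO and 2.74 in WT), and Tnfrsf25 has the lowest (-1.01 in KO and -0.98 in WT). The KO triangles of Fasl and Tnfsf14 stand at the ratio to the dim naive value itself and are no lower limit. The WT triangles of Fasl and Tnfsf11 are no strict limit either.

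Receptors had smaller DSS ratios than ligands as a list. Their median log2 ratio was 0.14 over 21 receptors in KO colons and 0.29 over 20 in WT colons, against 1.31 over 12 ligands in KO colons and 0.58 over 11 in WT colons. The ligands Tnfsf18, Tnfsf11, Tnfsf14 and Fasl were not well above background on either naive array. The direction of their DSS ratios was thus fixed by the filter. Over members on all 4 arrays the medians in KO colons were 1.24 for 8 ligands and 0.18 for 20 receptors. In WT colons they were 0.70 for the ligands and 0.29 for the receptors. The contrast between ligands and receptors was not tested. Both receptors of Tnf were higher with DSS. Tnfrsf1a, the death-domain receptor found on most cells (mm9 chr6:125312376-125312435), was spotted 10 times and gave 6.89 on KO DSS, 6.43 on WT DSS, 3.77 on KO naive and 3.87 on WT naive. Its DSS ratio was 1.83-fold in KO colons (log2 0.87 ± 0.05) and 1.66-fold in WT colons (log2 0.73 ± 0.06). No spot of a DSS array lay as low as any spot of a naive array. A further probe of the gene gave log2 DSS ratios of 0.83 in KO colons and 0.71 in WT colons.

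Tnfrsf1b, the TNF receptor without a death domain that is mainly found on immune and endothelial cells, gave 0.602 on KO DSS, 0.382 on WT DSS, 0.204 on KO naive and 0.195 on WT naive. The DSS ratio was 2.95-fold in KO colons (log2 1.56 ± 0.21) and 1.96-fold in WT colons (log2 0.97 ± 0.21). Its promoter (chr4:145246871-145247120, minus strand) is shown because its ratio in KO colons was the second largest of the receptors, and its capitals mark an interferon-stimulated response element on the opposite strand that starts 10 bases before the start.
Tnfrsf1b: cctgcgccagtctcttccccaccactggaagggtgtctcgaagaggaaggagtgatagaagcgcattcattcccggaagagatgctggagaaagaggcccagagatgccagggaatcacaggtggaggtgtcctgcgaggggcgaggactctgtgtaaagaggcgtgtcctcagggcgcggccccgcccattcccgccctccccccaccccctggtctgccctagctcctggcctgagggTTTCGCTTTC

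Cd40, the costimulatory receptor of B cells and antigen-presenting cells, had the largest DSS ratio of the receptors in KO colons. It gave 0.331 on KO DSS, 0.181 on WT DSS, 0.105 on KO naive and 0.0904 on WT naive. The ratio was 3.15-fold in KO colons (log2 1.65 ± 0.21) and 2.01-fold in WT colons (log2 1.01 ± 0.21), while the probe of its ligand Cd40lg was not well above background on any array. Fas, the death receptor, gave 1.77, 1.44, 0.986 and 0.871 on KO DSS, WT DSS, KO naive and WT naive, with log2 DSS ratios of 0.84 ± 0.20 in KO colons and 0.72 ± 0.20 in WT colons. Tnfrsf11b (osteoprotegerin), the soluble decoy of Tnfsf11, gave 0.407 on KO DSS, 0.287 on WT DSS, 0.169 on KO naive and 0.174 on WT naive. Its ratio was 2.41-fold in KO colons (log2 1.27 ± 0.21) and 1.65-fold in WT colons (log2 0.72 ± 0.21).

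Tnfrsf12a (Fn14), the receptor of Tnfsf12, gave 2.53 on KO DSS, 2.84 on WT DSS, 1.37 on KO naive and 1.39 on WT naive. Both DSS arrays were above both naive arrays, by 1.84-fold in KO colons (log2 0.88 ± 0.20) and 2.04-fold in WT colons (log2 1.03 ± 0.20). The receptor thus had a higher signal with DSS while the signal of its ligand Tnfsf12 differed by less than the error within the arrays at the brighter probe. Tnfrsf18, a receptor of regulatory and activated T cells, gave 0.447, 0.411, 0.294 and 0.253 on KO DSS, WT DSS, KO naive and WT naive. Its log2 DSS ratios were 0.60 ± 0.20 in KO colons and 0.70 ± 0.21 in WT colons.

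Tnfrsf25 (death receptor of Tnfsf15) and Tnfrsf19 (TROY, a receptor of epithelial and neural progenitors) were lower with DSS in both genotypes. Tnfrsf25 gave 0.256 on KO DSS, 0.200 on WT DSS, 0.518 on KO naive and 0.395 on WT naive, and both DSS arrays were below both naive arrays. The log2 DSS ratio was -1.01 ± 0.21 in KO colons and -0.98 ± 0.21 in WT colons. Tnfrsf19 gave 0.180 on KO DSS, 0.230 on WT DSS, 0.298 on KO naive and 0.344 on WT naive, with log2 ratios of -0.72 ± 0.21 in KO colons and -0.58 ± 0.21 in WT colons. Tnfrsf11a (RANK), the receptor of Tnfsf11, gave 3.46, 4.01, 5.31 and 4.43 on KO DSS, WT DSS, KO naive and WT naive, with log2 ratios of -0.62 ± 0.20 in KO colons and -0.14 ± 0.20 in WT colons.

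RefSeq gave Tnfrsf25 a pair of start sites, and the promoter with a match (chr4:152116093-152116342, plus strand) is shown as that of the member with the lowest DSS ratio, with its NF-kappa-B match, 28 bases before the start, in capitals.
Tnfrsf25: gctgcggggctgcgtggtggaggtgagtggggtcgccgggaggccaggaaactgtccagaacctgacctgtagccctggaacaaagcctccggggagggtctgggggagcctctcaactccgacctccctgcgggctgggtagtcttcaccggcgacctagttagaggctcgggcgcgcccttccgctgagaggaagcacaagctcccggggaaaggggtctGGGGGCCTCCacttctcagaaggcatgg

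The other receptors had log2 DSS ratios between -0.30 (Tnfrsf14) and 0.59 (Tnfrsf4) in KO colons, and between -0.53 (Tnfrsf13c) and 0.51 (Tnfrsf14) in WT colons. Tnfrsf10b, the death receptor of Tnfsf10 in the mouse, gave 0.544, 0.590, 0.663 and 0.516 on KO DSS, WT DSS, KO naive and WT naive, with log2 DSS ratios of -0.29 ± 0.20 in KO colons and 0.19 ± 0.20 in WT colons. Tnfrsf22 and Tnfrsf23, mouse decoy receptors of Tnfsf10 whose probes lie beside that of Tnfrsf26 on chromosome 7, had log2 ratios of 0.22 ± 0.22 and 0.40 ± 0.20 in KO colons and of 0.39 ± 0.22 and 0.43 ± 0.20 in WT colons. Cd27, a receptor of T and memory B cells, lay between 0.0179 and 0.0201 on all 4 arrays. Tnfrsf21, a death-domain receptor, lay between 0.584 and 0.728. Tnfrsf4 and Tnfrsf14, costimulatory receptors of T cells that bind Tnfsf4 and Tnfsf14, had DSS ratios on opposite sides of 0 in KO and WT colons, with log2 ratios of 0.59 ± 0.21 and -0.30 ± 0.21 in KO colons, and of -0.33 ± 0.21 and 0.51 ± 0.21 in WT colons.

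The mean effect of DSS over both genotypes was the only DSS contrast with a test, since 2 arrays stand on each side. These are 1 KO pool and 1 WT pool, not replicates. The residual of the fit is thus the difference in DSS effect between the genotypes. The p-values of this fit do not cover the spread between mice. An additive limma fit over 22162 genes (lmFit and eBayes, 1 residual degree of freedom) called 0 genes (0.0% of all) and so 0 members at an adjusted p under 0.05. The smallest adjusted p of any gene was 0.188, and for Tnf it was 0.201. At an unadjusted p under 0.05, 12 members were higher and 2 lower (Tnfrsf19 and Tnfrsf25), where 18.5% of all genes passed in either direction and 6.51% as higher. With eBayes trend and robust variance, 12 of 33 members passed an adjusted p of 0.05, against 6.91% of all genes. They were 11 higher ones (Cd40, Fas, Ltb, Tnf, Tnfrsf11b, Tnfrsf12a, Tnfrsf1a, Tnfrsf1b, Tnfsf10, Tnfsf14 and Tnfsf9) and Tnfrsf25, which was lower; 2.79% of all genes passed as higher. In that fit the adjusted p was 0.00148 for Tnf, 0.00676 for Tnfsf10, 0.0107 for Ltb and 0.0208 for Tnfrsf25. Limited to probes well above background on all 4 arrays, the plain fit called 8 of 28 members, against 5.62% of all genes. Over the 5 fits run (plain, trend and robust, all 4 arrays, quantile and normexp) the adjusted p ranged between 0.00148 and 0.234 for Tnf and between 0.0208 and 0.234 for Tnfrsf25.

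Differences between KO and WT naive colons were small in this family, as in most genes. At least 2-fold higher in KO naive than in WT naive colons were 0 of 29 members (1.19% of all 20928 genes), and at least 2-fold lower were 0 (1.1% of all genes). With such low shares, 0 of 29 members does not set the family apart from all genes. The largest measured log2 ratios were 0.73 ± 0.20 for Ltb, 0.70 ± 0.21 for Tnfrsf13b and 0.67 ± 0.22 for Tnfrsf13c, the last 2 being receptors of Tnfsf13b on B cells. Their other probes had -0.03 and 0.07 (Tnfrsf13b) and -0.34 (Tnfrsf13c), so that these values rest on the brightest probe. The median of the members was 0.22, against 0.02 for all genes, and 20 of 29 members were above 0 (54.6% of all genes).

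With DSS, 6 of 33 members were at least 2-fold higher in KO than in WT colons, where 5.23% of all 21551 genes were, and 0 were lower (2.26% of all genes). They were the ligands Tnfsf18 (at least 6.82-fold, from the single uneven spot), Tnfsf11 (3.98-fold, log2 1.99 ± 0.33), Tnfsf14 (2.41-fold, log2 1.27 ± 0.24) and Ltb (2.14-fold, with an error of 0.20 on the log2 scale), and the receptors Tnfrsf13c (2.16-fold, log2 1.11 ± 0.22) and Tnfrsf4 (2.02-fold, log2 1.01 ± 0.21). Members just outside the threshold were Tnfrsf26, Fasl and Tnfrsf13b, with log2 ratios of at least 0.99, 0.95 ± 0.37 and 0.94 ± 0.21. Cd40 and Tnfsf13b followed with 0.87 ± 0.21 and 0.83 ± 0.20. The median log2 ratio was 0.79 over 12 ligands and 0.17 over 21 receptors, against -0.08 for all genes, and 23 of 33 members were above 0 (38.5% of all genes). Over members on all 4 arrays it was 0.54 for 8 ligands and 0.14 for 20 receptors, since Tnfsf18, Tnfsf11, Tnfsf14 and Fasl were dim without DSS. Of these 28 members 3 passed 2-fold, namely Ltb, Tnfrsf13c and Tnfrsf4 (3.81% of all 19328 genes under that filter). With normexp background correction 3 of 33 did, namely Ltb, Tnfsf11 and Tnfsf18 (2.54% of 21549 genes). In the same comparison the 8 measured B cell markers had a median log2 ratio of 1.04 and the 6 measured markers of lymphoid tissue one of 1.18, and their part in the result was not tested.

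Both DSS ratios and both KO ratios draw on the same 4 arrays, so they are not independent of each other. Tnfrsf4 gave 0.394 on KO DSS, 0.195 on WT DSS, 0.262 on KO naive and 0.245 on WT naive, with the KO DSS array above and the WT DSS array below the naive pair. Tnfrsf14 gave 0.226, 0.318, 0.279 and 0.223 in the same order, and there the WT DSS array was the highest. A dimmer Tnfrsf14 probe gave 0.0548, 0.0537, 0.0426 and 0.0413, with both DSS arrays above both naive arrays. Ltb was higher in KO than in WT colons with DSS and without it. Tnfrsf1a, Tnfrsf12a and Tnfsf10 differed between KO and WT by a log2 ratio of at most 0.28 in either condition. The additive fit called 0 members (0.0% of all genes) for genotype at an adjusted p under 0.05, and its smallest adjusted p over all genes was 0.945. At an unadjusted p under 0.05, Ltb, Tnfrsf13b, Tnfrsf13c and Tnfrsf26 were higher in KO colons, or 4 of 33 where 3.84% of all genes passed. Tnfrsf26 was well above background on both KO arrays and on neither WT array, so its direction was fixed by the filter. The values of Tnfrsf13b and Tnfrsf13c rest on their brightest probes, which their other probes did not follow.

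**Figure D4:**
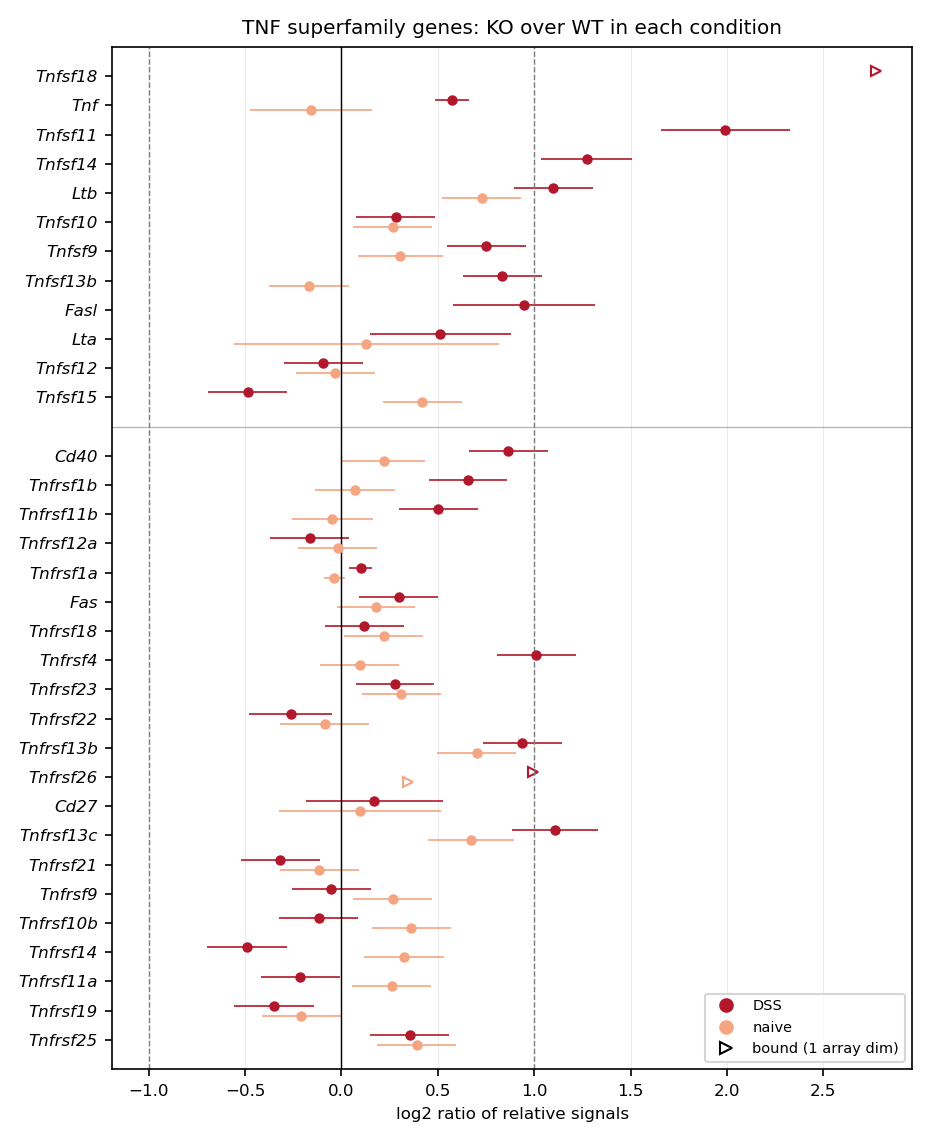
Log2 ratios of KO over WT for each gene with DSS and without it (naive); points are measured ratios with their error within the arrays as bars, triangles are bounds where the WT array was not well above background, and dashed lines mark 2-fold. Tnfsf18 (at least 2.77), Tnfsf11 (1.99) and Tnfsf14 (1.27) lead with DSS, and in naive colons Ltb is highest at 0.73.

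Of the members, 10 had more than 1 probe, and some pairs disagreed. Tnfrsf9, a costimulatory receptor of activated T cells, was flat at its brighter probe, with 1.44 on KO DSS, 1.49 on WT DSS, 1.71 on KO naive and 1.43 on WT naive. Its dimmer probe gave 0.0349 on KO DSS and 0.0129 on WT DSS, was not well above background on either naive array, and had a KO over WT log2 ratio of 1.43 with DSS. Tnfrsf13b (TACI) had a KO over WT log2 ratio with DSS of 0.94 at its brightest probe, against -0.17 and -0.06 at the other 2 probes. Tnfrsf13c (BAFF receptor) had 1.11 at its brighter probe and -0.03 at its dimmer one. The Tnfrsf13c call therefore rests on 1 probe, and with the mean of its probes the log2 ratio was 0.54.

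The first 30 bases of these probes are shown, 5′ to 3′, because the results turn on which one is read. On mm9 the bright and dim probes of Tnfrsf9 lie at chr4:150319582-150319641 and chr4:150319101-150319160, plus strand. Those of Tnfrsf13c lie at chr15:82052203-82052262 and chr15:82054616-82054675, minus strand. The probes of Tnfrsf13b lie, from bright to dim, at chr11:60962770-60962829, chr11:60960405-60960464 and chr11:60954823-60954882, plus strand. No annotation of that build was used, so exon and UTR positions are not given.
Tnfrsf9 bright: catagaccaatggtccagttaaaataactg
Tnfrsf9 dim: cgcgcacctcatccaagtctcttctaacgc
Tnfrsf13c bright: ctatgagtaagaagcttttctttgagctgg
Tnfrsf13c dim: atcagaccgagtgcttcgaccctctggtga
Tnfrsf13b bright: cctggagaatatagcctggctccatttgca
Tnfrsf13b middle: atcttctgctgtttcttggtggccttggcc
Tnfrsf13b dim: tcagctgtgactccacctgcacacagcacc

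**Figure D5:**
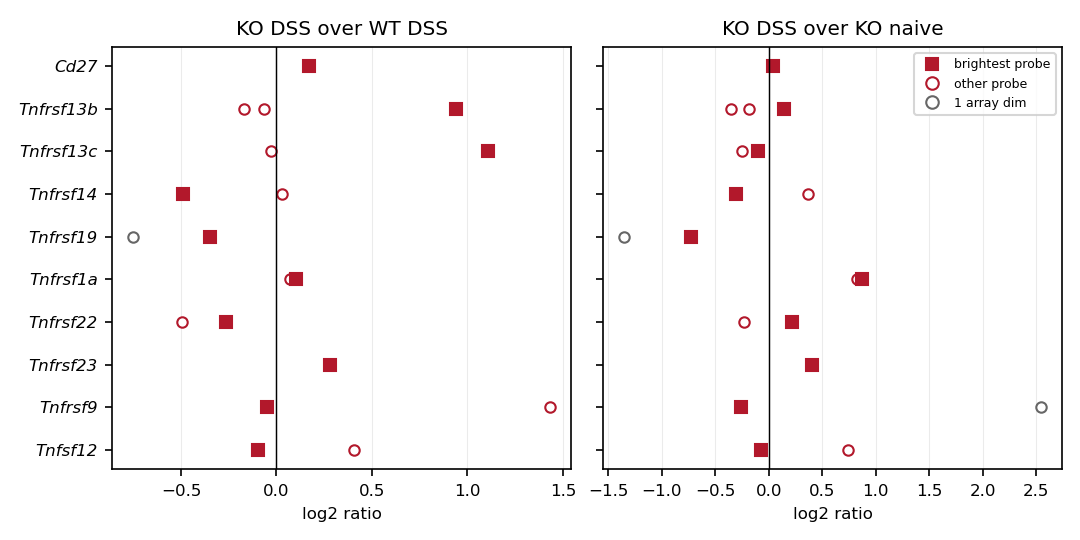
Log2 ratios of KO DSS over WT DSS (left) and of KO DSS over KO naive (right) for each kept probe of the members with several probes; squares are the brightest probe, which stands for the gene, red circles the other probes, and grey circles probes that were not well above background on 1 of the 2 arrays. The probes of Tnfrsf1a coincide, while those of Tnfrsf9, Tnfrsf13b and Tnfrsf13c lie apart on the left.

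Genes listed as targets or parts of this pathway divided into lists with and without large DSS ratios. Whether TNF or another signal raised the targets was not tested. Of genes known to be induced by TNF, 14 of 16 compared were at least 2-fold higher with DSS in KO colons (median log2 2.56, against 5.94% of all genes past the threshold) and 10 of 16 in WT colons (median 1.73, against 3.49%). In WT colons 1 was lower, Csf3, a growth factor of neutrophils, by at least 2.88-fold. That value rests on a dim WT naive signal of 0.0326, while Csf3 was not well above background on WT DSS or KO naive. With DSS, 11 of 17 were at least 2-fold higher in KO than in WT colons (median 1.30, against 5.23% of all genes). Several of these targets, such as Icam1, Cxcl1, Cxcl2, Il6 and Mmp9, were not well above background without DSS and entered only through the DSS arrays, so that their direction was fixed by the filter. Over the 9 targets on all 4 arrays, 8 were at least 2-fold higher with DSS in KO colons (median 2.65). In WT colons 6 were (median 1.68), and 5 were 2-fold higher in KO than in WT colons with DSS (median 1.12). Of all genes under that filter 4.71%, 2.54% and 3.81% passed in the same order. Il6, an inflammatory cytokine, gave 0.960 on KO DSS and 0.338 on WT DSS, and was not well above background on either naive array, for a DSS ratio of at least 62.3-fold in KO colons and at least 20.5-fold in WT colons. Cxcl10, a chemokine also known to be induced by interferons, gave 4.87, 3.94, 0.230 and 0.170 on KO DSS, WT DSS, KO naive and WT naive. With trend and robust variance, 10 of the 17 measured targets passed as higher with DSS (2.79% of all genes), and 0 did in the plain fit.

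Intracellular parts of the pathway were mostly flat. The median DSS log2 ratio of 19 receptor adaptors and death effectors was 0.01 in KO colons and 0.25 in WT colons. Ripk3, the kinase that starts necroptosis, gave 6.39 on KO DSS, 6.15 on WT DSS, 2.27 on KO naive and 1.89 on WT naive, and was the only one at least 2-fold higher in both genotypes (log2 1.49 in KO colons and 1.71 in WT colons). Mlkl, the pore-forming target of Ripk3, had log2 ratios of 0.82 in KO colons and 1.49 in WT colons, and Traf6, an adaptor, had -0.74 in KO colons and -1.51 in WT colons. Among 20 measured NF-kappa-B factors, kinases and inhibitors the medians were 0.01 in KO colons and 0.02 in WT colons, and Nfkbie, an inhibitor that NF-kappa-B itself induces, passed 2-fold in KO colons (log2 1.36) and not in WT colons (log2 0.75). Among 7 genes of ligand and receptor shedding, Mmp7, a protease of injured epithelium, passed 2-fold in KO colons (log2 1.96) and not in WT colons (log2 0.83). These differences between genotypes were not tested. Of family genes outside the name rule, Eda, Ltbr, Ngfr and Relt were measured, and 0 passed 2-fold with DSS in either genotype.

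Cell type markers differed between the arrays too, and their part in the results was not tested. Of 9 B cell markers 8 were measured, each well above background on all 4 arrays. They summed to 3.45 on KO DSS, 1.60 on WT DSS, 2.72 on KO naive and 1.70 on WT naive. With DSS all 8 were higher in KO than in WT colons (median log2 1.04), and in naive colons 7 of the 8 were (median 0.65). With DSS, Ltb and the brightest probes of Tnfrsf13b and Tnfrsf13c were higher in KO colons too. The other probes were not, with log2 ratios of -0.17 and -0.06 for Tnfrsf13b and -0.03 for Tnfrsf13c. Lymphoid tissue markers (6 of 8) summed to 8.39 on KO DSS and to between 2.53 and 2.91 on the other 3 arrays, with Cxcl13, a B cell chemokine, at 4.32 on KO DSS and 0.789 on WT DSS. A sum is carried by its brightest probes and can differ from the median ratio of its genes. T and NK cell markers (10 of 13) summed to 4.99 on KO DSS, 4.96 on WT DSS, 4.43 on KO naive and 4.05 on WT naive, while their median KO over WT log2 ratio with DSS was 0.42, with 7 of 10 above 0 and 2 at least 2-fold higher.

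Macrophage and dendritic cell markers (13 of 14) summed to 43.0 on KO DSS, 29.8 on WT DSS, 25.4 on KO naive and 24.8 on WT naive. Neutrophil markers (11 of 12) summed to 72.2, 33.5, 43.6 and 36.2 in the same order, with 11, 9, 7 and 6 of them well above background. That sum is carried by Csf3r, at 29.1, 20.0, 39.3 and 32.4, while S100a8 was 216-fold higher with DSS in KO colons and at least 113-fold in WT colons, and S100a9 was 88.4-fold higher in KO colons and 72.5-fold in WT colons. Fibroblast markers (9 of 9) summed to 150.5, 86.6, 65.5 and 81.0, and endothelial markers (8 of 8) to 10.7, 8.11, 7.91 and 7.86. Colon epithelium markers (14 of 14, all well above background on the 4 arrays) summed to 517 on KO DSS, 663 on WT DSS, 733 on KO naive and 632 on WT naive, and smooth muscle markers (7 of 7) to 178, 290.2, 297 and 305. Markers of tissues around the colon differed as well. Pancreatic acinar markers summed to 8.53, 30.8, 6.75 and 7.68, with 8, 8, 3 and 3 of 8 well above background, adipocyte markers to 30.9, 30.9, 6.38 and 5.82, erythrocyte markers to 45.1, 11.8, 3.98 and 4.82, and skeletal muscle markers to 1.86, 2.99, 4.17 and 3.95. Their part in the ratios of the TNF superfamily was not tested.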

How the data were processed

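RNA of 4 colon pools was read on 4 one-colour Agilent arrays, which share 1 slide and 1 scan date. Per the file headers, the scanner files of the authors hold an intensity per spot after background subtraction (the processed signal) with flags. They were made with Agilent Feature Extraction 11.5.1.1, per the submitters' processing notes. In the deposited table of the whole series there is a signal per spot, which equals the processed signal over the 75th percentile of its array up to 1 constant per array. All columns mapped to a sample. Probe coordinates are those of mm9, per the file headers.

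Control and outlier spots (129 to 136 per array) were left out, and log2 processed signals were set relative to the 75th percentile of the array and averaged over spots of a probe. Of 39377 probes, 28720 were kept as well above background on 1 or more arrays, and the brightest stood for each of 22162 genes. A gene counted in a pair of arrays when it was well above background on 1 of them. Where the other array was dim, the higher of its lowest well-measured signal and the dim value took its place. With the lowest well-measured signal the fold is written as at least, and with the dim value it is the plain ratio. The lowest well-measured signal is no strict limit for a dim spot. On KO naive it was 0.0154, yet Tnfsf14 (0.0191) and Fasl (0.0169) were dim there. With 1 array per group there is no test of a pair. The mean DSS and genotype effects were tested with an additive limma 3.58.1 fit in R 4.3.3, with Benjamini-Hochberg adjustment over all genes, which was also tested on simulated data. Symbols were updated through RefSeq, by accession for 27502 probes. The number of arrays limits the precision, and errors within an array do not cover the spread between mice.

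The members and all gene lists were chosen with earlier results of these data known. Every member could be named, and of each list up to 4 genes per comparison with the largest ratios. Alternatives were median and quantile scaling, normexp with an offset of 50, measured dim values, probes measured on all 4 arrays, the mean of all kept probes and another variance model. A gene that the rule leaves out is not reported here.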

Additional observations from a re-analysis of the deposited data

Results flagged for a closer look

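In 3 members the DSS ratio pointed up in one genotype and down in the other, each by more than its error within the arrays. The difference of log2 DSS ratios, KO minus WT, was -0.91 for Tnfsf15 (-0.33 in KO colons and 0.58 in WT colons), 0.92 for Tnfrsf4 (0.59 in KO colons and -0.33 in WT colons) and -0.81 for Tnfrsf14 (-0.30 in KO colons and 0.51 in WT colons). With 1 array per group none of these differences was tested. For Tnfrsf14 the opposite direction rests on the brighter probe: the dimmer probe had log2 DSS ratios of 0.36 in KO colons and 0.38 in WT colons, and with the mean of both probes the KO ratio was 0.03.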

How the results depend on the processing

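No direction of a count, median or called ratio of the members reversed under the alternatives run. The order of the genotypes by member median for DSS did change. These medians were 0.59 in KO colons and 0.39 in WT colons, against 0.31 and 0.41 with probes on all 4 arrays. Under another setting, 10 values that answer a comparison moved and 70 did not, and among single genes 42 moved and 700 did not. With normexp, 2 members (Tnf and Tnfsf10) were at least 2-fold higher with DSS in WT colons instead of 5, and 3 instead of 6 were higher in KO than in WT colons with DSS. Over all genes these counts fell too, from 754 to 552 and from 1127 to 547. The count of members higher in KO than in WT colons with DSS was also 3 with probes measured on all 4 arrays, a filter that drops 5 members. The count of members lower with DSS in KO colons was 0 with median scaling, 0 with normexp and 2 with the mean of all kept probes. All genes lower there numbered 922, 545 and 1152 in the same order, against 1106 without these changes. The member median for DSS in KO colons was 0.31 with probes on all 4 arrays, and 1 member (Tnfrsf26) passed 2-fold in KO naive over WT naive colons with measured dim values. The additive fit called 12 members for DSS with trend and robust variance and 8 with probes on all 4 arrays, against 0 in the plain fit and with the other scalings. The cause of these moves was not tested. The filter on all 4 arrays also left fewer genes, 19328 against 22162. Median scaling moved the all-gene median in WT colons with DSS to 0.11, and the share of higher among 2-fold calls there was 53.1% with it and 52.9% with normexp, against 39.5%. In KO colons that share was 63.9% with normexp against 53.2%, in KO over WT with DSS 59.6% with measured dim values against 69.9%, and in KO over WT naive 64.5% with probes on all 4 arrays against 52.0%. No paired analysis was possible because each group has 1 array and the labels give no replicate numbers, and leaving out an array would leave the additive fit no residual degrees of freedom. Signals near background limit Tnfsf18, Tnfsf11, Tnfsf14, Fasl and Tnfrsf26.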
